A study of Mus musculus with 6 samples.

Results

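The genes described here are 38 transcripts known mainly from the mouse oocyte, measured in preparations of ovarian granulosa cells, the somatic cells that surround the oocyte in the follicle. A gene was measured where a probe set, a group of short probes for a transcript, carried its symbol alone in the platform annotation. Where a gene had several such probe sets, the one brightest on average was used. Of the 38 genes, 35 were measured, out of 18193 genes on the arrays, and Nlrp2, Npm2 and Oas1d had no probe set with a single symbol.

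Total RNA of granulosa cells was hybridised to 1 Affymetrix expression array per sample, in 3 groups of 2 arrays. The first group was Foxo1 f/-;Foxo3 f/- with Amhr2-cre at 2 months of age, the second the same genotype at day 25 of age, and the third wild type at day 25. The mutant is called dKO here. Per its label it carries for each gene a conditional and a minus allele, with Cre driven from Amhr2, a receptor gene active in granulosa cells. All mice shared a mixed FVB and C57BL/6 background, and how the granulosa cells were separated from oocytes is not stated in the labels. Wild type at 2 months was not analysed here, so age in wild type cannot be compared. In the dKO at 2 months age and genotype cannot be told apart when set against wild type.

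Granulosa cells and the oocyte depend on each other. The oocyte secretes growth factors of the TGF-beta family that direct the granulosa cells around it, and the granulosa cells send it Kit ligand, metabolites and signals that hold meiosis in arrest. A growing oocyte also builds its coat, the zona pellucida, and stores the RNAs and proteins that the early embryo will use. Most of the genes described here are used as markers of oocytes. In bulk RNA of a granulosa preparation, fewer oocytes and less RNA per oocyte cannot be told apart.

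All 6 arrays had a median intensity of 73 or 74, where intensity is the deposited brightness of a probe set on a linear scale. Replicate 1 of dKO at 2 months stood apart, with r between 0.964 and 0.978 with the other arrays across probe sets, against 0.982 to 0.992 among the other 5. Foxo1 intensity was 126 and 343 in dKO at 2 months, 904 and 2291 in dKO at day 25, and 10319 and 7666 in wild type. Foxo3 was not lower in the dKO on any of its 3 probe sets in the group means. Whether these probe sets lie in the deleted part is not stated in the labels. Of 10 granulosa markers, 9 had an intensity of at least 993 on every array. The exception was Nr0b1, with 68 and 31 in dKO at 2 months, 34 and 121 in dKO at day 25, and 309 and 232 in wild type, a log2 difference of -2.04 ± 0.70 (SE) at day 25 (adjusted p = 0.581 in limma). The summed intensity of the 10, most of it from bright genes such as Inha, Inhbb and Gja1, ranged from 102813 to 111313 in dKO at 2 months, from 102469 to 112404 in dKO at day 25, and from 99776 to 105402 in wild type.

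The oocyte factor FIGLA, a basic helix-loop-helix protein, binds the E-box CANNTG in the promoters of the zona genes. The upstream sequences of a zona gene, of the transcription factors Figla and Nobox and of the secreted factor Oosp1 are shown, with Kit beside them because its values depart from the other genes below. They are the 250 bases before the RefSeq start, 5′ to 3′ in the direction of the gene, in GRCm38.p6. The positions are chr5:135979855-135980104 on the plus strand for Zp3, chr6:86016941-86017190 on the plus strand for Figla, chr6:43309555-43309804 on the minus strand for Nobox, chr19:11691052-11691301 on the minus strand for Oosp1 and chr5:75574737-75574986 on the plus strand for Kit. Capitals mark every CANNTG, a motif that reads the same way on both strands.
Zp3: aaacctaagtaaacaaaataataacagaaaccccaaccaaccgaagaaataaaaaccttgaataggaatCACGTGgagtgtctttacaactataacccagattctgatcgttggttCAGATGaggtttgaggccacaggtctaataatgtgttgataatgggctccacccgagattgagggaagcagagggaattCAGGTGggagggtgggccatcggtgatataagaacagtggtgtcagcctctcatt
Figla: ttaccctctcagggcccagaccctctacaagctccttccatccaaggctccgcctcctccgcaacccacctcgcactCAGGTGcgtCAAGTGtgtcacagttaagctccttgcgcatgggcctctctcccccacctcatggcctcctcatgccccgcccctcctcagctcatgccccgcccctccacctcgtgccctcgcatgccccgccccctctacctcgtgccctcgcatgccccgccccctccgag
Nobox: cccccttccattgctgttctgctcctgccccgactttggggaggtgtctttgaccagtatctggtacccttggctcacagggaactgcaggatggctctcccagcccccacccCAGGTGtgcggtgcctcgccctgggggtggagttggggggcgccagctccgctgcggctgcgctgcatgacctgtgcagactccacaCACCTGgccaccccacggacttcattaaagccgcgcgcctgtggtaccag
Oosp1: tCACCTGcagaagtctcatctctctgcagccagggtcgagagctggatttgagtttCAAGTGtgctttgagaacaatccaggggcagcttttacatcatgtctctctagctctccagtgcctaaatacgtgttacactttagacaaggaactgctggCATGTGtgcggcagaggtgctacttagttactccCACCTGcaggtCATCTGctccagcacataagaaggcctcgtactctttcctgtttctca
Kit: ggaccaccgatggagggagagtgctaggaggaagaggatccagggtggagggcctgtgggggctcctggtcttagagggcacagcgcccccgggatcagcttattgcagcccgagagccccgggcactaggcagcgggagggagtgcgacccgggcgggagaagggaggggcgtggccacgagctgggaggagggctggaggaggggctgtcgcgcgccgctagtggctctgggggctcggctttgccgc

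Zp3 had 3 E-boxes, the farthest of them a CACGTG starting 181 bases before the start. Oosp1 had 5, while Kit had 0 in this window. Kit was 1 of 5 genes with 0, the others being Gpr3, Lhx8, Uchl1 and the unmeasured Nlrp2. Sohlh1, whose sequence is not shown, had 5. Pearson's r with the median profile of the other genes, described below, was 0.994 for Lhx8, 0.998 for Uchl1 and 0.897 for Gpr3. It was 0.358 for Kit and 0.519 for Sohlh1. A link between E-boxes and the array values was not tested. Promoters were found for 28 of the 38 genes, 31 in all because Kit, Nlrp5 and Pou5f1 had 2 each. CANNTG stood in 25 of the 31 (80.6%), against 66.2% of 32851 promoters of the same length. The form CAGGTG, searched on both strands and itself a CANNTG, stood in 14 of the 31 (45.2%) against 17.2% of all promoters. The 14 included Zp3, Figla, Nobox, Oosp1, Sohlh1, Zar1, Khdc3 and Padi6. CACGTG, another CANNTG form, stood in 9.68% against 6.02%. The homeobox core TAATTG, searched on both strands and able to overlap an E-box, stood in 6.45% against 7.17%. These are matches of letters in a short window, and the genes shown were picked after the matches were counted.

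The secreted factors come first. Gdf9, a growth factor that makes granulosa cells divide and expand, had an intensity of 855 and 5374 in dKO at 2 months, 6771 and 9178 in dKO at day 25, and 5016 and 3046 in wild type. Bmp15, its partner on the X chromosome, had 174 and 1200 in dKO at 2 months, 1396 and 1853 in dKO at day 25, and 1032 and 542 in wild type. Oosp1, an oocyte-secreted protein, had 2517 and 7424 in dKO at 2 months, 8990 and 10973 in dKO at day 25, and 5811 and 4130 in wild type. In each gene replicate 2 of dKO at day 25 was highest and replicate 1 of dKO at 2 months lowest, and both dKO arrays at day 25 lay above both wild-type arrays. The 2 other Bmp15 probe sets ran the same way.

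The zona pellucida genes were among those that differed most between arrays. Zp1 intensity was 137 and 1498 in dKO at 2 months, 2032 and 3184 in dKO at day 25, and 1373 and 739 in wild type. Zp2 intensity was 283 and 4802 in dKO at 2 months, 6424 and 10103 in dKO at day 25, and 3980 and 2419 in wild type. Zp3 intensity was 463 and 5404 in dKO at 2 months, 7219 and 11105 in dKO at day 25, and 5120 and 3007 in wild type. These glycoproteins form the coat that sperm must cross. On replicate 1 of dKO at 2 months they stood at 2.80% to 4.30% of their level on replicate 2 of dKO at day 25, and at 5.89% to 9.15% of their level on the other array of their own group. Over all 35 genes the medians of these shares were 10.8% and 17.8%.

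All 6 transcription factors were highest on replicate 2 of dKO at day 25, and 5 of them were lowest on replicate 1 of dKO at 2 months. Nobox, a homeobox factor needed for follicles to leave the primordial stage, had an intensity of 140 and 924 in dKO at 2 months, 1144 and 1956 in dKO at day 25, and 771 and 403 in wild type. Lhx8, a LIM homeobox factor of early oocytes, had 62 and 707 in dKO at 2 months, 922 and 1248 in dKO at day 25, and 612 and 338 in wild type. Obox5, an oocyte homeobox gene, had 670 and 2173 in dKO at 2 months, 2778 and 2865 in dKO at day 25, and 1863 and 1210 in wild type. On replicate 1 of dKO at 2 months Lhx8 had 8.77%, Nobox 15.2% and Obox5 30.8% of its intensity on replicate 2. Pou5f1, the OCT4 factor of germ cells, ranged from 143 to 771. Figla had 55 and 153 in dKO at 2 months, 203 and 423 in dKO at day 25, and 182 and 125 in wild type. Sohlh1, a factor of primordial oocytes, had 41 and 45 in dKO at 2 months, 47 and 80 in dKO at day 25, and 34 and 45 in wild type. Sohlh1 was thus dim on every array and lowest on replicate 1 of wild type.

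NLRP proteins and the subcortical maternal complex are stored beneath the egg surface and are needed by the early embryo. Ooep, a member of that complex, had 1567 and 7758 in dKO at 2 months, 8642 and 11830 in dKO at day 25, and 5646 and 3742 in wild type. Nlrp14 had 570 and 6286 in dKO at 2 months, 7806 and 11907 in dKO at day 25, and 6275 and 3605 in wild type. Padi6, a protein of the cytoplasmic lattices, had 309 and 3339 in dKO at 2 months, 4451 and 7207 in dKO at day 25, and 3316 and 1877 in wild type. The 7 measured genes of this group kept from 7.56% (Nlrp5) to 25.7% (Nlrp4f) of their level on replicate 2 of dKO at 2 months when replicate 1 was set against it. Nlrp5, also called Mater, had 206 and 2725 in dKO at 2 months, 3685 and 6824 in dKO at day 25, and 2845 and 1334 in wild type. Khdc3, another member of the complex, had 90 and 515 in dKO at 2 months, 692 and 1450 in dKO at day 25, and 361 and 330 in wild type. It had the largest fitted log2 difference at day 25 of all 35 genes.

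The maternal chromatin and stored factors followed the same arrays. Tcl1, a coactivator of AKT, had 1080 and 3110 in dKO at 2 months, 3553 and 4505 in dKO at day 25, and 2677 and 1594 in wild type. Btg4, an adaptor that brings the deadenylase to maternal RNAs, had 840 and 2691 in dKO at 2 months, 3252 and 4599 in dKO at day 25, and 2222 and 1652 in wild type. Zar1, which binds stored RNAs, had 455 and 2782 in dKO at 2 months, 3467 and 5421 in dKO at day 25, and 2541 and 1646 in wild type. Tcl1 and Btg4 were less reduced on replicate 1 of dKO at 2 months than Zar1 was, at 34.7% and 31.2% of replicate 2 against 16.4%. Dppa3, which protects maternal DNA methylation after fertilisation, ranged from 317 to 4935, and H1f8, the oocyte linker histone, from 387 to 2654.

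Among the RNA-binding proteins of germ cells, Dazl had 286 and 1132 in dKO at 2 months, 1406 and 2004 in dKO at day 25, and 968 and 616 in wild type. Cpeb1, which controls polyadenylation of stored RNAs, had 153 and 914 in dKO at 2 months, 1182 and 1722 in dKO at day 25, and 1040 and 534 in wild type. Ddx4, the VASA helicase of germ cells, had 10 and 141 in dKO at 2 months, 197 and 565 in dKO at day 25, and 172 and 86 in wild type. Ddx4 had the widest range of all 35 genes, 56.5-fold between its highest and lowest array, and its lowest value was close to the lowest intensity of any probe set. The second Dazl probe set ran like the first.

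The signalling genes were less uniform. Mos, the kinase that holds the mature egg in metaphase, had 299 and 1113 in dKO at 2 months, 1486 and 2296 in dKO at day 25, and 1103 and 649 in wild type. Gpr3, the receptor that keeps cAMP high in the arrested oocyte, had 81 and 226 in dKO at 2 months, 330 and 306 in dKO at day 25, and 128 and 131 in wild type. Kit, the receptor through which Kit ligand acts on the oocyte, had 787 and 905 in dKO at 2 months, 737 and 1071 in dKO at day 25, and 697 and 460 in wild type. Gpr3 differed little between the replicates of either day 25 group. On the array where 33 other genes were lowest, Kit lay within the range of the other dKO arrays. Kit is known also from mast cells and from theca and interstitial cells. The second Kit probe set lay between 25 and 33 on all arrays.

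The remaining genes included bright probe sets with a narrow range. Bcl2l10, a BCL2 family protein of oocytes, had 2302 and 6011 in dKO at 2 months, 6654 and 8154 in dKO at day 25, and 5336 and 3231 in wild type. Uchl1, a ubiquitin hydrolase of oocytes and neurons, had 837 and 4209 in dKO at 2 months, 4851 and 6619 in dKO at day 25, and 3436 and 2564 in wild type. Rfpl4, a RING finger protein of oocytes, had 818 and 3368 in dKO at 2 months, 4054 and 5866 in dKO at day 25, and 2723 and 1811 in wild type. Bcl2l10 had the highest share left on replicate 1 of dKO at 2 months in this group, 38.3% of replicate 2. Oas1e and Oas1h, oocyte members of the oligoadenylate synthetase family, ranged from 413 to 3835 and from 56 to 732.

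**Figure D1:**
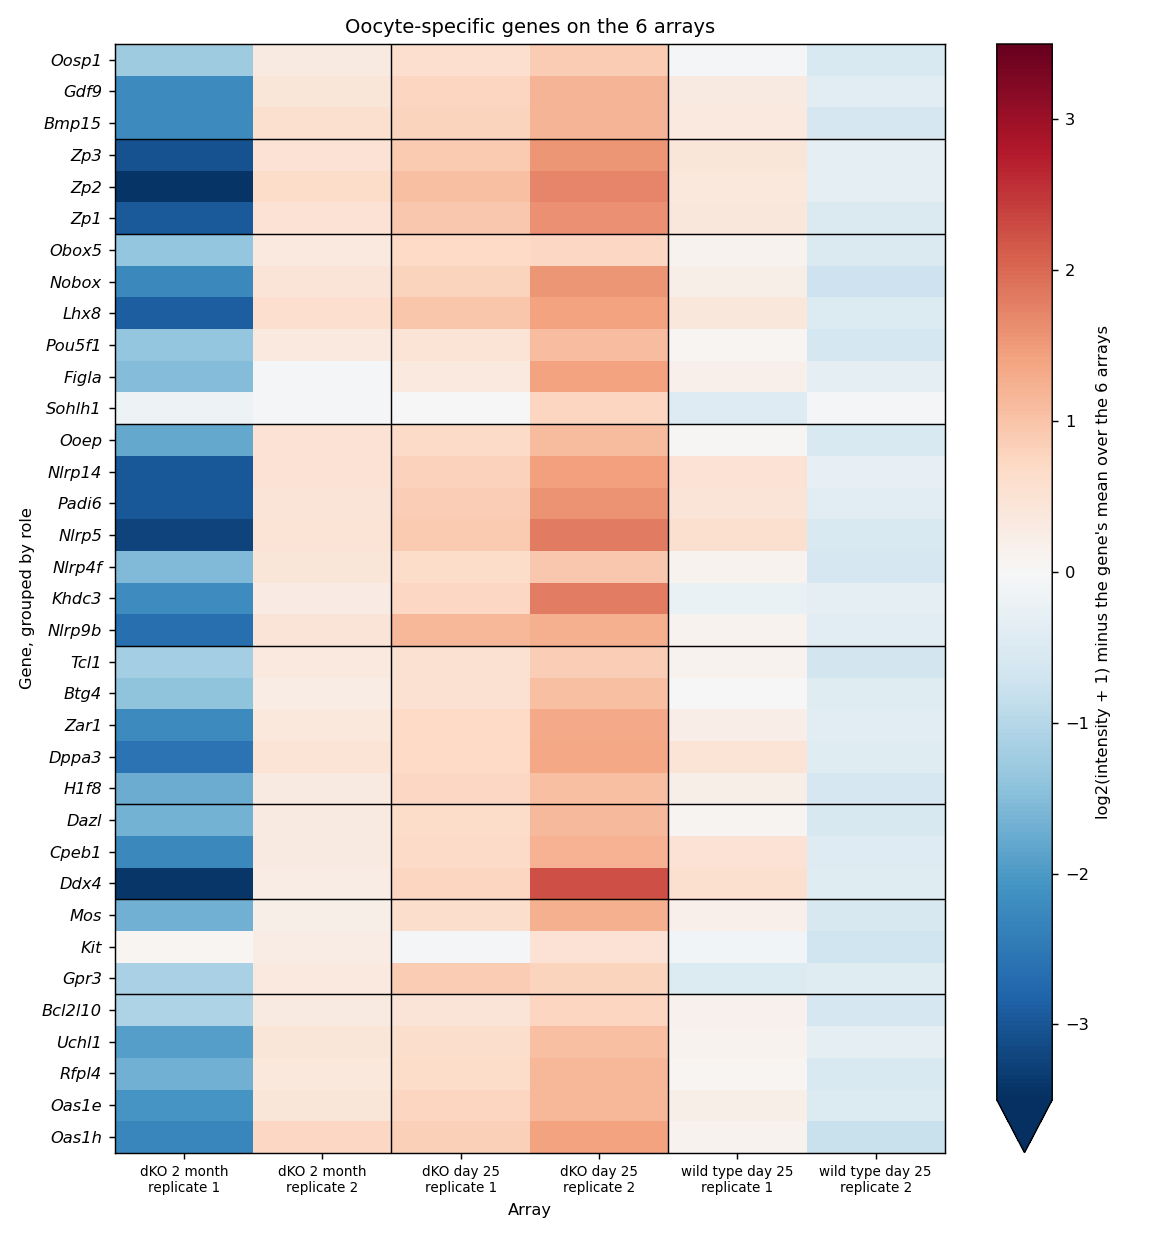
Level of the 35 oocyte-specific genes (rows, grouped by role) on the 6 arrays (columns), as log2(intensity + 1) minus the mean of each gene over the 6 arrays. The column of dKO 2 month replicate 1 is the lowest for 33 of the 35 genes, and that of dKO day 25 replicate 2 the highest for 34.

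Across the genes the order of the arrays was nearly fixed. In 28 of 35 genes it ran, from high to low, dKO day 25 replicate 2, dKO day 25 replicate 1, dKO 2 month replicate 2, wild type replicate 1, wild type replicate 2 and dKO 2 month replicate 1. In 4 others only the third and the fourth array changed places. The highest array was dKO day 25 replicate 2 in 34 genes, against 16.9% of all genes, and the lowest was dKO 2 month replicate 1 in 33, against 30.7% of all genes. That array was also the highest for 32.6% of all genes and for 0 of the 35. Gpr3 was the gene with another highest array, and Kit and Sohlh1 those with another lowest. The genes share the RNA of each sample, so their common order is a property of 6 samples and not of 35 independent observations.

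Most steps were also of similar size across the genes, the last being the exception. From dKO day 25 replicate 2 to replicate 1 the median fold was 1.45, with an interquartile range of 1.33 to 1.57 over the 35 genes. From wild type replicate 1 to replicate 2 it was 1.65 (1.51 to 1.79). The same folds over all genes had medians of 1.02 and 0.995. From dKO day 25 replicate 1 to dKO 2 month replicate 2 the median fold was 1.25 (1.16 to 1.33), against 0.985 over all genes. The step from dKO 2 month replicate 2 to wild type replicate 1 was the smallest at 1.16 (1.06 to 1.23), with 31 of 35 genes above 1. Over all genes the same step had a median of 1.05 (0.92 to 1.19), so the interquartile ranges overlapped. This step was smaller than the difference between the replicates of any group. The last step, from wild type replicate 2 to dKO 2 month replicate 1, was 2.89 and also the least uniform (1.94 to 4.70). Its extremes were Ddx4 at 8.60 and Kit at 0.584.

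Within the groups, the 2 arrays of dKO at 2 months differed most. Replicate 1 was over 2-fold lower than replicate 2 for 33 of 35 genes, where 5.17% of all genes were. Kit and Sohlh1 were the others. The median log2 difference, replicate 1 minus 2, was -2.48, from a 2.61-fold lower intensity for Bcl2l10 to 17.0-fold for Zp2 among those 33. In dKO at day 25 the median was -0.54, and 3 genes, Ddx4, Figla and Khdc3, were over 2-fold lower on replicate 1 (1.11% of all genes). In wild type it was 0.72, and Nlrp5 alone was over 2-fold higher on replicate 1 (1.49% of all genes), while 0 were over 2-fold lower there (0.819%). Over all genes the medians lay between -0.03 and -0.01.

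**Figure D2:**
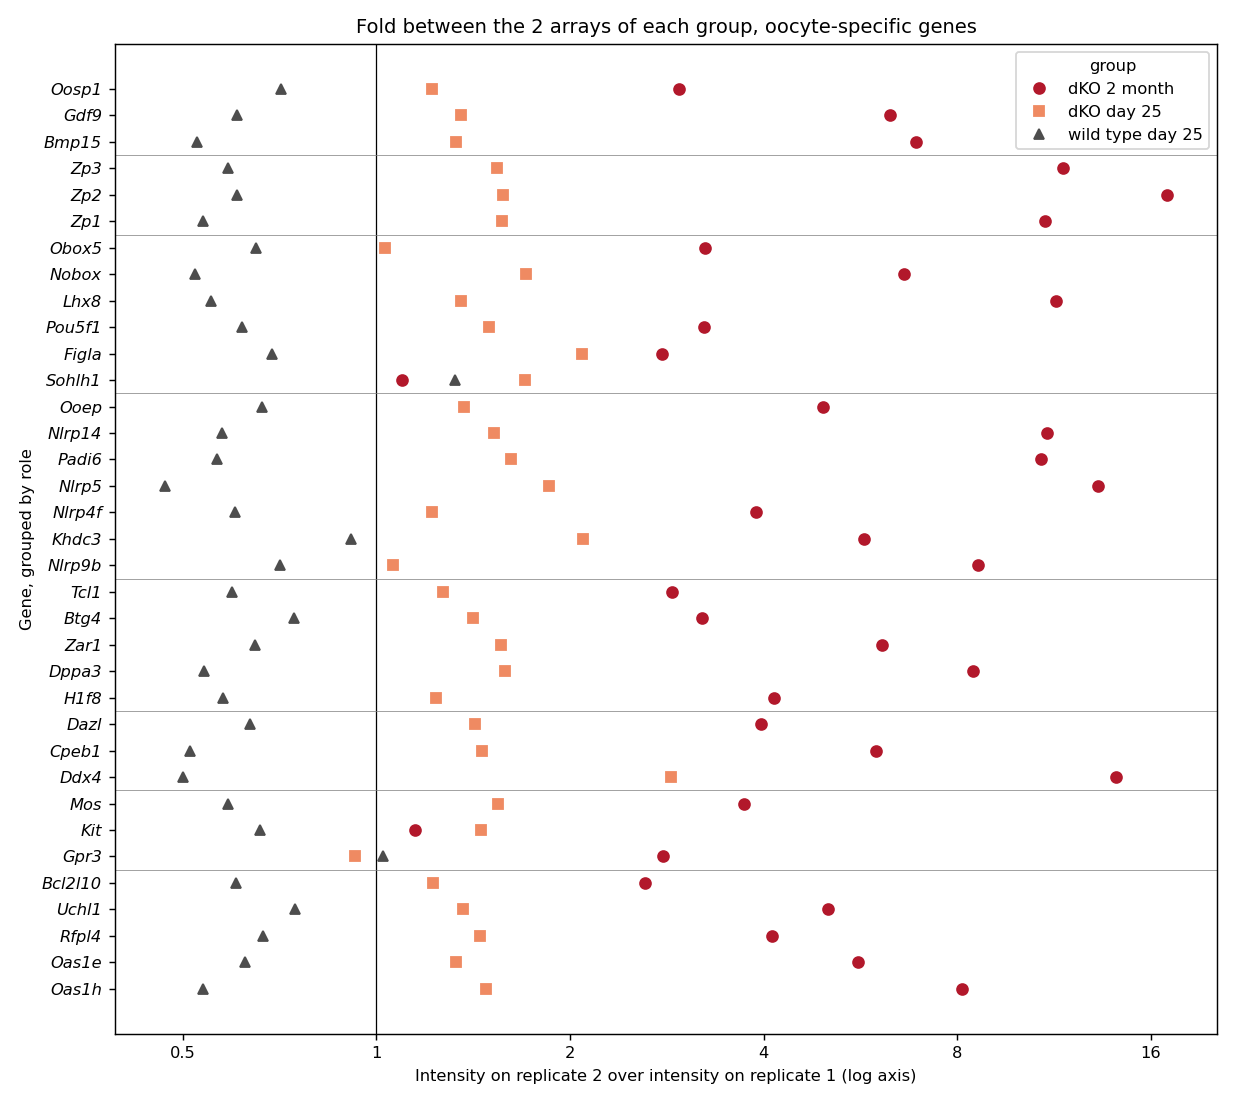
Intensity on replicate 2 over intensity on replicate 1 (log axis) for each of the 35 genes (rows, grouped by role) in dKO at 2 months, dKO at day 25 and wild type at day 25. The 2-month points reach 17.0 for Zp2, while Kit and Sohlh1 stay near 1, and most wild-type points lie to the left of 1.

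At matched age, oocyte-specific genes had higher means in the dKO than in wild type, but no single gene passed the test. All 35 had both dKO arrays above both wild-type arrays, where the groups did not overlap in that direction for 26.4% of all genes. No gene lay below wild type without overlap, against 19.5%. The median log2 difference was 1.08 over the 35 genes and 0.03 over all genes. Gdf9 had a mean intensity of 7974.5 ± 1702 in dKO, against 4031 ± 1393 for wild type (SD, n = 2), and Zp3 had 9162 ± 2748 in dKO, against 4063.5 ± 1494 for wild type. In limma, fitted across all probe sets with Benjamini-Hochberg adjustment, log2 differences ran from 0.64 ± 0.29 (SE) for Sohlh1 to 1.53 ± 0.88 for Khdc3. Adjusted p-values of the 35 genes lay between 0.605 and 0.845, and 0 of them passed 0.05, as did 0% of all genes. At an unadjusted p under 0.05 only Gpr3 was higher, by 1.29 ± 0.48 (adjusted p = 0.605 in limma), where 4.88% of all genes were, and 0 were lower (3.43%). Because the groups did not overlap, leaving out an array could not turn the direction of any of the 35 genes. The median lay between 0.77 without wild type replicate 2 and 1.43 without wild type replicate 1. The count at an unadjusted p under 0.05 was 19 with 1 or the other 2-month array left out and 0 without dKO day 25 replicate 2 or wild type replicate 2.

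With age in the dKO, these genes had lower means at 2 months than at day 25, and the size of the difference depended on which 2-month array was kept. The median log2 difference was -1.77, against 0.02 over all genes. It was -0.55 without dKO 2 month replicate 1 and -3.01 without replicate 2. In 34 of 35 genes both 2-month arrays lay below both day 25 arrays, where 17% of all genes did, and Kit was the exception. In the other direction 0 were apart, against 19.7%. Zp2 averaged 2542.5 ± 3195 in dKO at 2 months and 8263.5 ± 2601 in dKO at day 25 (SD, n = 2), a log2 difference of -2.79 ± 1.35 (SE). Differences ran from -3.08 ± 1.32 for Ddx4 to -0.07 ± 0.28 for Kit, with adjusted p between 0.712 and 0.946 in limma, so 0 genes passed, against 0% of all genes. At an unadjusted p under 0.05 only Figla was lower, with a log2 difference of -1.66 ± 0.61 (adjusted p = 0.712 in limma), where 2.9% of all genes were, and 0 were higher (3.73%). That count was 33 without dKO 2 month replicate 2 and 0 with 1 or the other wild-type array, or dKO day 25 replicate 2, left out.

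Between dKO at 2 months and wild type at day 25 the direction of the genes turned with the array left out. The median log2 difference was -0.66, but it was 0.55 without dKO 2 month replicate 1, -1.93 without replicate 2, -0.24 without wild type replicate 1 and -0.93 without wild type replicate 2. The mean of the log2 values was higher in 3 of 35 genes, Kit, Sohlh1 and Gpr3, and in 35 of 35 without dKO 2 month replicate 1. On the linear scale Oas1h was also higher, with a mean intensity of 255.5 in dKO at 2 months against 231.5 in wild type, and Oosp1 was equal at 4970.5 in both. Only Kit had both 2-month arrays above both wild-type arrays, where 26.5% of all genes did, and 0 were below without overlap, against 17.3%. No gene passed in limma, with adjusted p between 0.446 and 0.975, against 0% of all genes. At an unadjusted p under 0.05, 0 genes were higher and 0 lower, where 9.53% and 5.36% of all genes were. The count of lower genes was 29 without dKO 2 month replicate 2. For a single gene, 0.333 is the smallest two-sided p that exact permutation of 2 against 2 arrays can reach.

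**Figure D3:**
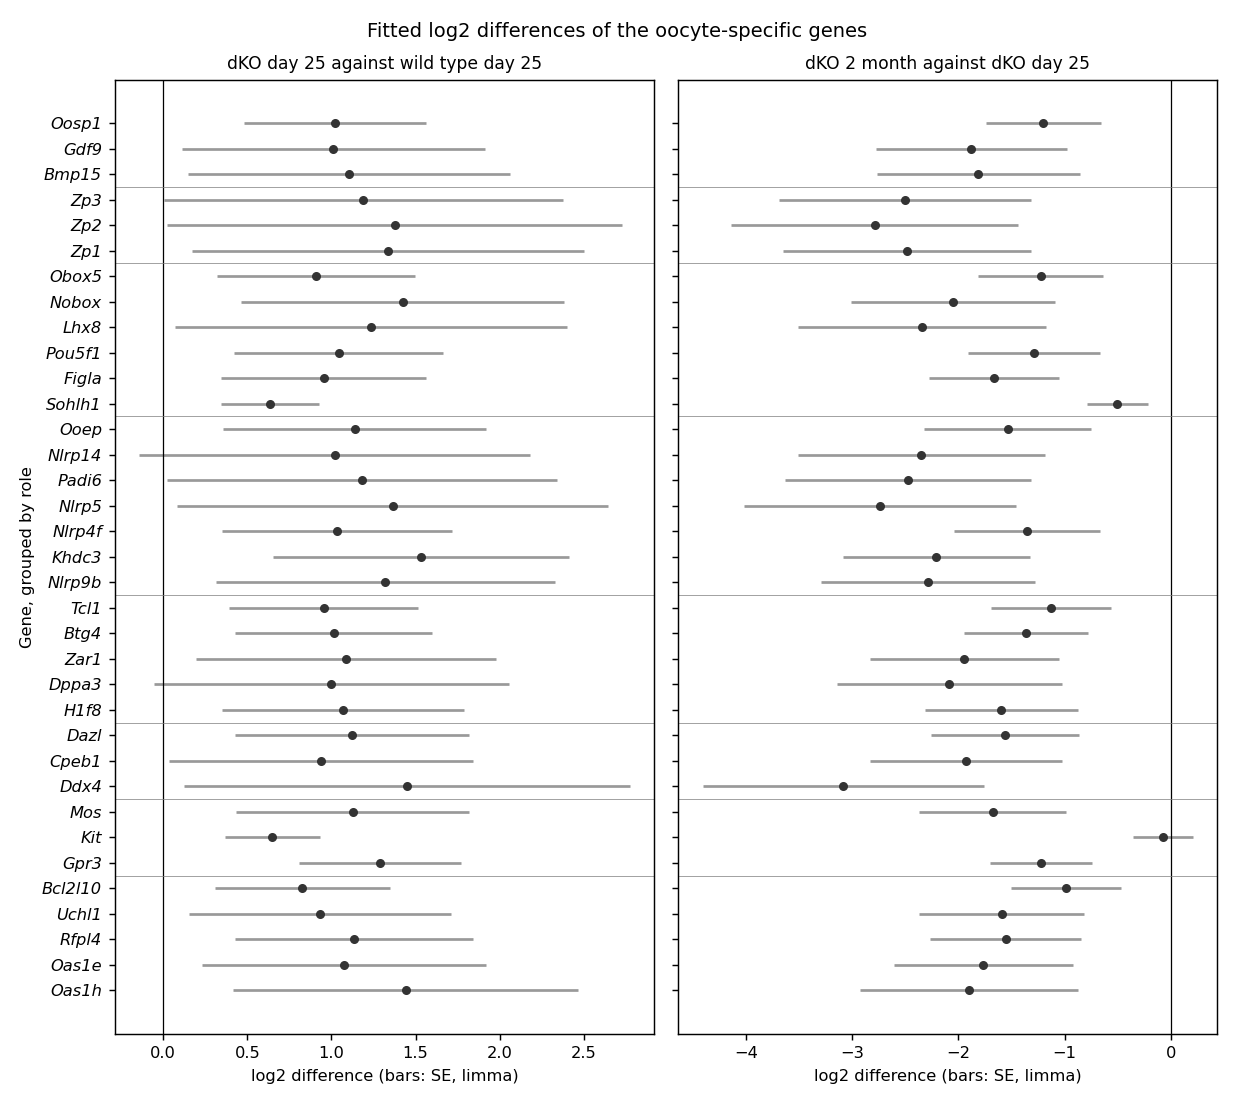
Fitted log2 difference (points) and its standard error (bars) of the 35 genes, grouped by role, for dKO at day 25 against wild type at day 25 and for dKO at 2 months against dKO at day 25. Points lie above 0 for all 35 genes on the left and below 0 for all 35 on the right, with Kit at -0.07, and no gene had an adjusted p under 0.05.

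A further 50 oocyte genes that were not among the 38 were listed, of which 41 were measured. Their median level followed the same arrays, at -1.50 and 0.28 in dKO at 2 months, 0.59 and 0.96 in dKO at day 25, and 0.17 and -0.56 in wild type, on the log2 scale relative to the mean of the 6 arrays. The corresponding values of the 35 genes were -2.06 and 0.37, 0.70 and 1.18, and 0.19 and -0.47. At day 25, 39 of the 41 had a higher mean in dKO, and 0 passed after adjustment in limma. Tcl1b3 alone was higher at an unadjusted p under 0.05, by 0.30 ± 0.09 (adjusted p = 0.558 in limma), where 4.88% of all genes were. Rspo2, an oocyte-secreted activator of WNT signalling, had 320 and 2352 in dKO at 2 months, 3075 and 3921 in dKO at day 25, and 1931 and 1145 in wild type. Rspo2 is also among the 12 genes below that were picked by likeness to the set. Tle6, of the subcortical maternal complex, had 1731 and 4910, 6089 and 8855, and 4135 and 2345 in the same groups. Plat, brighter on average than Rspo2, had 1589 and 2449, 3466 and 4212, and 3150 and 1434, so its lowest array was in wild type. Tcl1b3 differed from its relatives, with 1923 and 1915, 2142 and 1996, and 1692 and 1665, while Tcl1b1 and Tcl1b4 ordered all 6 arrays as most of the 35 genes did. Obox3, Obox6, Gdf3 and Pde3a hardly varied, each with at most 81 on any array.

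How closely a gene followed the set was described by Pearson's r over the 6 arrays with the median profile of the other genes, which describes 6 arrays that share their RNA across genes. It was at least 0.9 for 32 of the 35 genes, the exceptions being Gpr3 at 0.897, Sohlh1 at 0.519 and Kit at 0.358. Over the 5 arrays without dKO 2 month replicate 1 the number was again 32, with Kit among them at 0.909 and Figla no longer. On the array left out the median level was 1.64 for leukocyte, 1.11 for endothelial and 0.89 for surface epithelium markers. It was 0.55 for theca and interstitial, 0.45 for stromal and 0.01 for granulosa markers. Cyp17a1, Star and Gli1 were lower there than on dKO 2 month replicate 2. The other theca and interstitial markers, Ptch1 and Hsd3b1, were higher. No mast cell markers were listed. The part of these cells in the Kit value was not tested.

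Genes outside the list with the same profile were then ranked, over 3405 genes with a log2 range of at least 1 and a mean log2 level of at least 6. The 12 closest were Dnmt1, Syce2, Cdca5, Fbxw22, Arhgap20os, Ccno, Nin, Cpa1, Acbd3, Rspo2, Zbed3 and 1700067K01Rik, each with r of at least 0.998. Dnmt1, the maintenance DNA methyltransferase that has its own oocyte form, had 1525 and 6159 in dKO at 2 months, 7488 and 10085 in dKO at day 25, and 5602 and 3804 in wild type. Syce2, a protein of the synaptonemal complex, had 1026 and 3481, 4146 and 5160, and 3128 and 2192 in the same groups. Cdca5, the cohesion factor sororin, had 998 and 2995, 3675 and 4529, and 2833 and 2084. All 3 ordered the arrays as most of the 35 genes did, which follows from their being picked by r with that profile. In all, 698 other genes had r of at least 0.9, or 20.7% of the other genes ranked, and 507 of them also without dKO 2 month replicate 1. Of all genes, 1466 differed over 2-fold between the 2-month replicates, 941 of them lower and 525 higher on replicate 1. Of the 1466, 33 belonged to the set and 511 were other ranked genes with r of at least 0.9. The profile is itself lowest on replicate 1, so genes that fall there tend to have a high r.

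**Figure D4:**
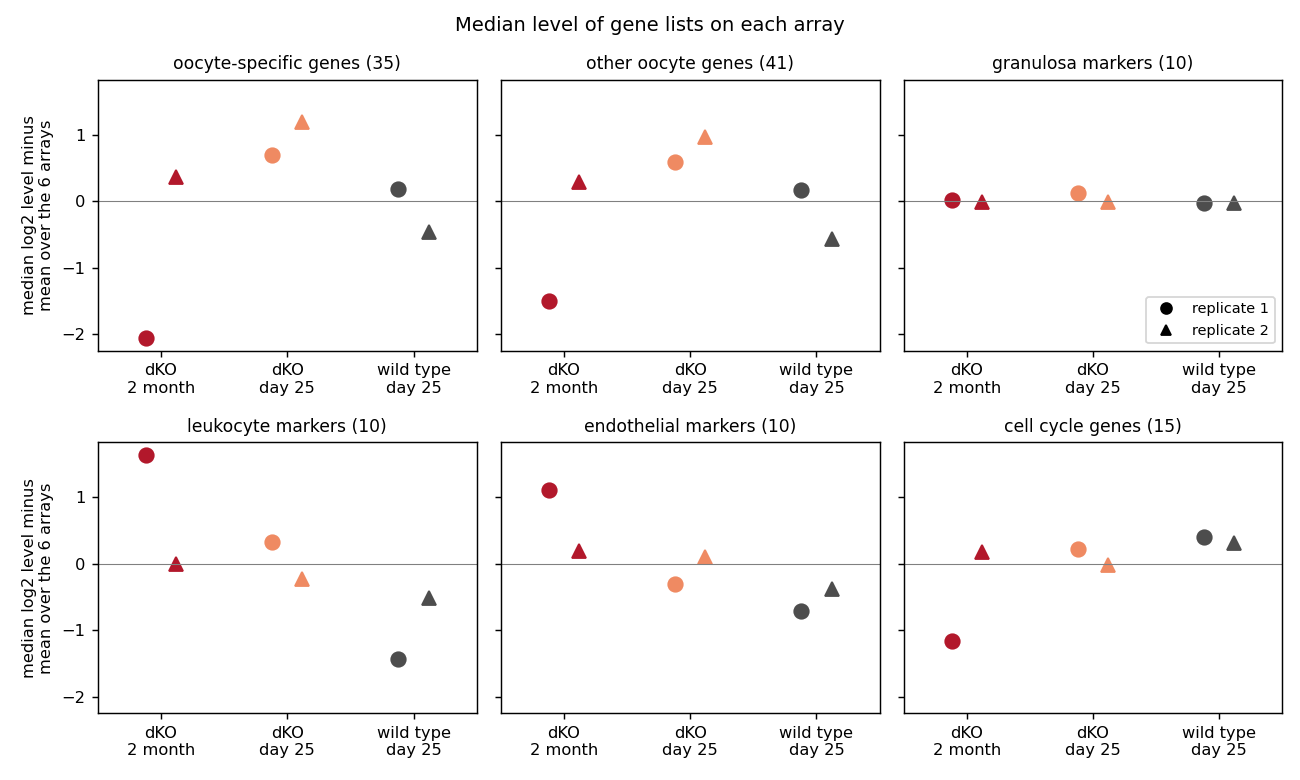
Median log2 level of 6 gene lists on each array, relative to the mean over the 6 arrays (circles replicate 1, triangles replicate 2), for dKO at 2 months, dKO at day 25 and wild type at day 25. Both oocyte lists are lowest on dKO 2 month replicate 1, leukocyte and endothelial markers are highest there, and granulosa markers lie between -0.03 and 0.11 on all arrays.

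Markers of other cells moved with the oocyte genes on some arrays and against them on others. The summed intensity of 10 leukocyte markers was 15904 and 5156 in dKO at 2 months, 8218 and 4702 in dKO at day 25, and 1663 and 3431 in wild type. That of 10 endothelial markers was 3752 and 1965, 1301 and 1844, and 1029 and 1235. All 10 leukocyte, all 10 endothelial and all 10 stromal markers had higher means in dKO at day 25 than in wild type, as the oocyte genes had. So did 9950 of all 18193 genes. The other lists were mixed, with 2 higher and 3 lower for theca and interstitial markers and 4 higher and 2 lower for surface epithelium markers. Of the cell cycle genes 3 were higher and 12 lower. In dKO at 2 months against dKO at day 25, all 10 leukocyte, all 10 endothelial and all 6 surface epithelium markers had higher means. Stromal markers were split 5 and 5, 3 theca and interstitial markers were higher and 2 lower, and all 15 cell cycle genes were lower. Of all genes 9617 were higher and 8343 lower. The lowest values of the defining markers were 46 for Ptprc and 30 for Pecam1, both in wild type. The lowest intensity of any probe set was 6 or 7 on each array, so values above 0 do not show that these cells were present. The cell cycle list was lowest on dKO 2 month replicate 1, at -1.16 against 0.18 on replicate 2. The part of these cells in the oocyte values was not tested. Granulosa markers had medians between -0.03 and 0.11 over the arrays, a narrower range than that of either oocyte list. Single markers varied more, and a median can hide genes that move in opposite directions. Beside Nr0b1, given above, Foxl2 ran from 6165 to 13167, Fst from 4491 to 10515 and Amh from 1819 to 4016.

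The granulosa partners of oocyte signals were listed separately, and 10 of 11 were measured. At day 25, 3 had higher and 7 lower means in dKO, and 0 passed in limma after adjustment. Slc38a3, an amino acid transporter of cumulus cells, was the 1 gene past an unadjusted p of 0.05, with 129 and 320 in dKO at 2 months, 336 and 1010 in dKO at day 25, and 2411 and 1945 in wild type. Its log2 difference at day 25 was -1.89 ± 0.67 (adjusted p = 0.589 in limma). Of all genes, 3.43% were lower at that unadjusted level. Gja1, which forms the gap junctions of granulosa cells and is also among the granulosa markers, had 22079 and 20388 in dKO at 2 months, 20303 and 19947 in dKO at day 25, and 20149 and 20016 in wild type. Bmpr2, the receptor for GDF9 and BMP15, had 12799 and 10440, 11625 and 11110, and 11940 and 12032 in the same groups. Tgfbr1, which signals for GDF9, had 6172 and 3185, 2827 and 3553, and 4584 and 4411. None of these 3 shared the order of the oocyte genes, and 0 of the 10 had r of at least 0.9 with them. Kitl, the ligand of Kit, had 240 and 2325, 3863 and 623, and 3801 and 322, so the replicates of each group differed over 2-fold. Kitl and Slc38a3 were named after their values were seen.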

How the data were processed

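Biotin-labelled RNA of granulosa preparations was measured on 1 Affymetrix array per sample. The authors deposited 1 intensity for each probe set and array, linear and in whole numbers. The submitters' processing notes name affy and RMA, and their versions and a genome build are not given in the sources used here. RMA makes the distributions of the arrays alike, so a shift of most genes would not be seen. Of 45101 probe sets, 64 controls were left out and 45037 were fitted as log2(value + 1), which understates folds of dim genes. A single symbol was given for 34945. The genes, their roles, the other lists and the tests were chosen with earlier results of these data known.

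With R 4.3.3 and limma 3.58.1, all 6 arrays entered 1 model with 3 residual degrees of freedom, from which 3 two-sided comparisons were taken (lmFit, eBayes). Benjamini-Hochberg adjustment ran over all 45037 probe sets, with a threshold of 0.05, and the script was tested on simulated data. Separate animals are not stated for the replicates. The p-values therefore describe the spread among these arrays, which may be technical, and the number of arrays limits the precision. Values on every array are printed for the 3 brightest genes of each of 8 role lists and for any with r under 0.5 (Kit). Sohlh1, Figla, Khdc3, Nlrp5 and Nr0b1 were added after their values were seen. Promoters came from RefSeq (GRCm38.p6). The settings varied were centring, a further quantile step, a pseudocount of 16, dropping dim or shared-suffix probe sets, averaging a gene's probe sets, an intensity trend, fits of 4 arrays, a replicate block and each array left out.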

Additional observations from a re-analysis of the deposited data

How the results depend on the processing

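The median differences and the levels per array moved by less than the spread between replicates under array centring, repeated quantile normalization, a pseudocount of 16, the mean of all probe sets, exclusion of shared-suffix probe sets and a filter on dim probe sets. Among the 35 genes 0 had an adjusted p under 0.05 in any comparison under any alternative run. What moved was the count at an unadjusted p under 0.05. For dKO at day 25 against wild type, 1 gene was higher; 2 were with the mean of all probe sets, 19 in the fit of 4 arrays, and 0 to 19 with an array left out, while the median ranged from 0.77 to 1.43. For dKO at 2 months against dKO at day 25, 1 was lower; 3 were after centring, 2 after quantile normalization, 0 with a pseudocount of 16, 4 without dim probe sets, 2 with the mean of all probe sets, 7 with a trend and 0 in the fit of 4 arrays. With an array left out it ranged from 0 to 33, the median from -3.01 to -0.55, and the number with a higher mean from 0 to 1. For dKO at 2 months against wild type, the median ranged from -1.93 to 0.55, the number with a higher mean from 2 to 35, the lower count from 0 to 29 and the higher count from 0 to 1, and 1 was higher with the mean of all probe sets. Kit turned to higher at 2 months than at day 25 in the dKO when its probe sets were averaged (0.0196), where 1 gene had a higher mean, and ranged from -0.34 to 0.20 with an array left out. The causes were not tested.

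Same-numbered replicates did not deviate together, with correlations of 0.06, -0.21 and -0.16 between the groups, so the numbers were not taken as pairs; the replicate block gave 2 lower genes between the dKO ages and changed no other count by over 1.5 times. A crossed replicate block, with the wild-type numbers exchanged and chosen after seeing the data, gave 6 higher genes at day 25, 27 lower between the dKO ages and 1 higher at 2 months against wild type. The levels were also recomputed without Kit and Sohlh1, chosen after seeing the data, and moved by less than the replicate spread. The number of genes following the profile was 32 or 33 of 35 with any array left out, and of other genes 673 to 837.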
